A study of Mus musculus with 6 samples.

Results

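The genes followed here are 9 writers, erasers and readers of DNA methylation, taken by symbol from a table of 48440 genes in mouse ovarian surface epithelial cells. They are the DNA methyltransferases Dnmt1, Dnmt3a and Dnmt3b, the TET dioxygenases Tet1, Tet2 and Tet3, the UHRF proteins Uhrf1 and Uhrf2, and the methyl-CpG binding protein Mbd2. All 9 were found by their Ensembl ID, and 8 passed the filter on low counts that left 14811 genes for testing. Tet1 did not pass it. The family was chosen by name, with no measured value in the rule. It and the lists of other genes below were still chosen with earlier results of these data known.

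Ovarian surface epithelium (OSE) is the single cell layer that covers the ovary. Poly(A)-selected RNA of OSE cells was sequenced at 7 days after transduction with an adenovirus. There were 3 libraries of cells given Ad-Cre-GFP, whose genotype is labelled Lats1/2 knockout, and 3 libraries of cells given Ad-GFP, whose genotype is labelled WT. The comparison asks what loss of LATS1 and LATS2, the Hippo pathway kinases that hold back the coactivators YAP and TAZ, does to expression. Both groups carried a GFP adenovirus, and Cre exposure, deletion and any difference in culture cannot be told apart. Since no label says whether the replicates were separate cultures, the p-values may reflect technical spread alone. The labels leave out age, strain, floxed alleles and the exons that Cre removes.

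Methylation of cytosine at CpG sites is copied onto the newly made strand at each round of DNA replication. UHRF1 binds the half-methylated sites behind the replication fork and brings in DNMT1, which methylates the new strand, while DNMT3A and DNMT3B set methylation at sites that had none. TET enzymes oxidise methylcytosine in a reaction that uses oxygen, iron and alpha-ketoglutarate, and base excision repair or further replication then leaves plain cytosine. RNA levels alone were measured in this study, not methylation or enzyme activity.

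Library totals were 27734527 to 30304033 counts in Ad-Cre-GFP and 18690235 to 25363462 counts in Ad-GFP. Levels are given in CPM, counts scaled to the library total with TMM factors, and a count of 0 allows up to 3 counts, or 0.0990 to 0.161 CPM. Ad-GFP replicate 3, the smallest library, lay at -18.69 on the second principal component, against 8.85 and 11.1 for the remaining Ad-GFP libraries. Lats1 was at 38.6, 36.0 and 36.6 CPM in Ad-Cre-GFP, against 159, 151 and 168 CPM in Ad-GFP. Lats2 was at 98.8, 101 and 96.7 CPM in Ad-Cre-GFP, against 127, 131 and 131 CPM in Ad-GFP, so that transcript counted over the whole Lats2 gene stayed at 76.2% of the control mean. Of 11 OSE and mesothelium markers all were detected, with a summed level of 2859 ± 19.5 CPM in Ad-Cre-GFP and 2921 ± 39.0 CPM in Ad-GFP (SD, n = 3 each). By the call rule given below, 5 of these markers were higher and 6 lower, against 34.0% and 35.8% of all tested genes. Msln was at 887 CPM in Ad-Cre-GFP and 413 CPM in Ad-GFP. Krt19 (185 against 560 CPM), Gata4 (106 against 273 CPM) and Wt1 (90.6 against 201 CPM) were lower. Fibroblast markers summed to 972 to 1031 CPM in Ad-Cre-GFP and 2709 to 2868 CPM in Ad-GFP. Of the 6, 4 were tested, all 4 were lower (35.8% of all tested genes were), and Lum was at 0 in every library. Most of that sum was Col3a1 (738 CPM in Ad-Cre-GFP against 2350 CPM in Ad-GFP), and Col1a2 had 6 against 4 counts. Endothelial markers summed to 2.13 to 2.61 CPM in Ad-Cre-GFP and 0.107 to 0.473 CPM in Ad-GFP, with Tie1 at 0. Most of the Ad-Cre-GFP sum was a single gene, Kdr, with 173 counts over the Ad-Cre-GFP libraries and 4 over the Ad-GFP libraries. Pecam1 had 10 against 14 counts, Cdh5 3 against 0 and Tek 17 against 3. Immune markers summed to 6.53 to 7.14 CPM in Ad-Cre-GFP and 11.0 to 13.4 CPM in Ad-GFP, with Adgre1 at 0. Of the 2 tested, Cd14 was lower (35.8% of all tested genes were) and Cd68 was not called. Theca markers summed to 94.4 to 96.5 CPM in Ad-Cre-GFP and 132 CPM in Ad-GFP with Hsd3b1 at 0. The 2 tested, Star and Nr5a1, were lower (35.8% of all tested genes were). Granulosa markers summed to 2.99 to 4.08 CPM in Ad-Cre-GFP and 3.26 to 3.85 CPM in Ad-GFP with Fshr and Cyp19a1 at 0. Of the 3 tested, Amh and Foxl2 were higher (34.0% of all tested genes were) and Inha was lower. Oocyte markers summed to 0.288 to 0.506 CPM in Ad-Cre-GFP and 0.321 to 0.434 CPM in Ad-GFP with Zp2 and Zp3 at 0. The part of other cell types in the changes below was not tested, and in bulk RNA fewer cells of a type and less RNA per cell cannot be told apart.

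A gene was called where its adjusted p (edgeR quasi-likelihood test, Benjamini-Hochberg over all tested genes) was under 0.05. Of the 8 genes tested, 5 were called, against 69.8% of all tested genes, so that the number of calls is near the background and says nothing particular about the family. Dnmt1 and Uhrf1 were higher in Ad-Cre-GFP, against 34.0% of all tested genes, and Dnmt3a, Tet2 and Tet3 were lower, against 35.8%. The groups did not overlap for 6 of the 8, against 73.0% of all tested genes: 3 were higher (Dnmt1, Dnmt3b and Uhrf1; 35.4% of all) and 3 lower (37.6% of all). Dnmt3b, Uhrf2 and Mbd2 were not called.

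**Figure D1:**
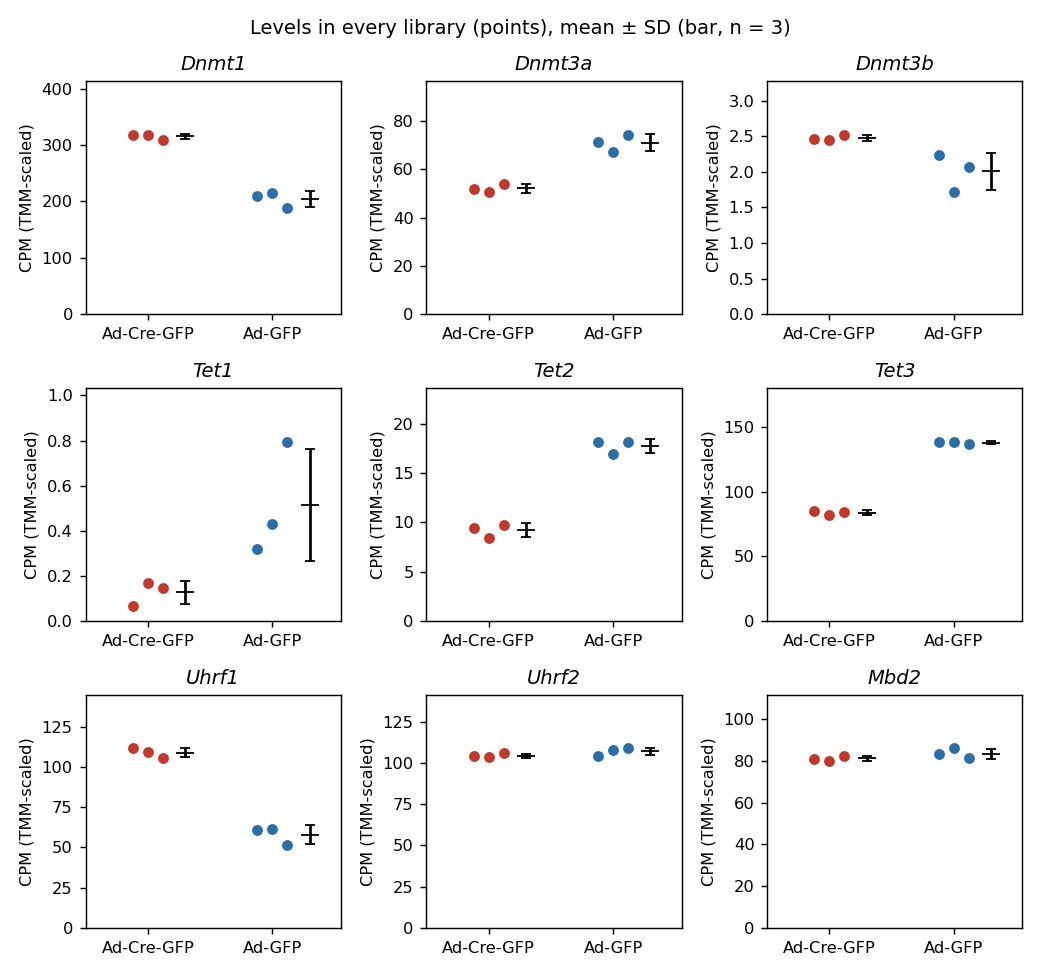
Level of each of the 9 genes in every library in TMM-scaled CPM, with Ad-Cre-GFP in red on the left, Ad-GFP in blue on the right, and the mean ± SD (n = 3) beside the points. Every axis starts at 0, and the groups are apart for Dnmt1 (310 to 318 CPM against 188 to 215 CPM) and overlap for Uhrf2.

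Dnmt1 encodes the maintenance methyltransferase (chromosome 9, 20907209 to 20959888, GRCm38). It had 9299, 9494 and 8488 counts in the Ad-Cre-GFP libraries, against 4602, 5483 and 3554 counts in the Ad-GFP libraries. Scaled for depth, this was 318, 318 and 310 CPM in Ad-Cre-GFP and 210, 215 and 188 CPM in Ad-GFP. All Ad-Cre-GFP libraries lay above all Ad-GFP libraries, and Ad-GFP replicate 3 was the lowest. Dnmt1 rose 1.54-fold, a log2 change of 0.62 ± 0.04 (SE, adjusted p = 3.77e-11, edgeR quasi-likelihood test). Without Ad-GFP replicate 3 the log2 change was 0.57.

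Uhrf1 encodes the ubiquitin ligase that reads half-methylated CpG sites and recruits DNMT1 (chromosome 17, 56303321 to 56323486). Its counts were 3258, 3257 and 2896 in Ad-Cre-GFP, against 1337, 1573 and 966 in Ad-GFP. Levels averaged 109 ± 2.88 CPM in Ad-Cre-GFP and 57.9 ± 5.80 CPM in Ad-GFP (SD, n = 3 each). The groups were far apart, and Ad-GFP replicate 3 was again the lowest library, at 51.2 CPM. Uhrf1 rose 1.87-fold, a log2 change of 0.90 ± 0.05 (adjusted p = 2.75e-09, edgeR), and by 0.83 without that library. Some reads of Uhrf1 may be counted elsewhere, since the processed pseudogene Gm5648 on chromosome X matches it over 1590 bases at 98.3% identity. Gm5648 had 522, 551 and 458 counts in Ad-Cre-GFP, against 216, 245 and 170 in Ad-GFP, a log2 change of 0.90 ± 0.07. With its counts added to Uhrf1 the log2 change of Uhrf1 was 0.90 (adjusted p = 4.12e-10, edgeR).

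Uhrf2, the paralog of Uhrf1 that does not replace it in maintaining methylation, was not called (chromosome 19, 30030513 to 30093722). It had 3037, 3096 and 2898 counts in Ad-Cre-GFP, against 2287, 2753 and 2051 counts in Ad-GFP. Once scaled, the groups overlapped, at 104, 104 and 106 CPM in Ad-Cre-GFP and 104, 108 and 109 CPM in Ad-GFP. The log2 change was -0.03 ± 0.03 (adjusted p = 0.361, edgeR), with a 95% interval of -0.10 to 0.03.

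Promoter windows of Dnmt1, Uhrf1 and Uhrf2 are printed because the maintenance pair rose together while the paralog was not called. RefSeq windows (GRCm38.p6, from 250 bases before to 50 bases after an annotated start) were held for 8 of the 9 genes, 13 windows in all. Each was searched on both strands for the E2F letters TTTGGCGC, TTTCCCGC, TTTCGCGC and TTCCCGCC, of which the second and the last overlap where they adjoin. Capitals mark a match, every sequence runs 5′ to 3′ on the strand of its gene, and all are whole windows.
Dnmt1, chr9:20952574-20952873, minus strand: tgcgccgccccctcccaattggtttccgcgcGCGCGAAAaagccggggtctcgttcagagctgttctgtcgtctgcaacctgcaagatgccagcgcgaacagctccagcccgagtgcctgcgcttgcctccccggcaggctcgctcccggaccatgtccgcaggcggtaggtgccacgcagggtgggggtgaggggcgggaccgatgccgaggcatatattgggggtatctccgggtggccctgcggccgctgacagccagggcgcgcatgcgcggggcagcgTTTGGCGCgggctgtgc
Uhrf1, chr17:56303087-56303386, plus strand: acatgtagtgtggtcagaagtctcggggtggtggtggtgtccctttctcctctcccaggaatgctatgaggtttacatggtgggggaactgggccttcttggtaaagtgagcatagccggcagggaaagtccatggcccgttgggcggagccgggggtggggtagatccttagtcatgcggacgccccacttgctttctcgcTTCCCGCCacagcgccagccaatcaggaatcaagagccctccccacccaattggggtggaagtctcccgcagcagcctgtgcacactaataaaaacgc
Uhrf1, chr17:56304063-56304362, plus strand: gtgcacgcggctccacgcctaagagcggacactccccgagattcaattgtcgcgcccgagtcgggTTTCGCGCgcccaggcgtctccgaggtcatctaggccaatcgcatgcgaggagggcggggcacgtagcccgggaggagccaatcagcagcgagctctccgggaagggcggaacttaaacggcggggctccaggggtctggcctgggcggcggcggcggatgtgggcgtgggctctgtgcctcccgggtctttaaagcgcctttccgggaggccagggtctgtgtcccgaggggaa
Uhrf2, chr19:30030263-30030562, plus strand: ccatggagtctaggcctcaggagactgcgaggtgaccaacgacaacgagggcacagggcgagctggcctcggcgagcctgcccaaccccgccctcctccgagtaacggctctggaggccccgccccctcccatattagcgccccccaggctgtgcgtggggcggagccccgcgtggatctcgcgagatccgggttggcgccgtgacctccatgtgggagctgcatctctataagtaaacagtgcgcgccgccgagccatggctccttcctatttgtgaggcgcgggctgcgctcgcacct
The printed Dnmt1 window held a match upstream of the start and another downstream of it, and the other two Dnmt1 windows of the table (chr9:20952930-20953229 and chr9:20959839-20960138), not printed, held none. In the Uhrf1 windows the matches began at positions -48 and -185 from their starts. Of all 32851 promoter windows 3.49% held such a match. By gene, a match was held by 2 of the 8 family genes with a window (Dnmt1 and Uhrf1), by 9 of 17 replication genes, and by 764 of 9869 tested genes (7.74%). The letters GGAATG, read by TEAD factors, which YAP and TAZ bind, were in 1 of the 13 windows (the first Uhrf1 window, not capitalised), against 14.7% of all windows. Also searched, and not capitalised, were CCAAT (in 37.4% of all windows) and TTTGAA (in 17.9%). CCAAT lay in windows of Dnmt1, Uhrf1 and Tet3, and TTTGAA in windows of Dnmt1 and Dnmt3b. These are matches of letters only, and binding was not measured.

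Dnmt3a encodes a de novo methyltransferase (chromosome 12, 3806007 to 3914443). It had 1513, 1508 and 1484 counts in Ad-Cre-GFP, against 1570, 1721 and 1402 counts in Ad-GFP. Raw counts overlapped between libraries of unequal depth. Scaled levels did not, at 51.8, 50.5 and 54.2 CPM in Ad-Cre-GFP and 71.6, 67.3 and 74.3 CPM in Ad-GFP. Dnmt3a fell by 0.44 ± 0.04 on the log2 scale (adjusted p = 5.58e-09, edgeR).

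Dnmt3b, the other de novo methyltransferase, was expressed at a low level (chromosome 2, 153649450 to 153687730). It had 72, 73 and 69 counts in Ad-Cre-GFP, against 49, 44 and 39 counts in Ad-GFP. Levels were 2.46, 2.44 and 2.52 CPM in Ad-Cre-GFP and 2.23, 1.72 and 2.07 CPM in Ad-GFP. Every Ad-Cre-GFP library lay above every Ad-GFP library, with little distance between them. The log2 change of 0.31 ± 0.16 did not pass the test (adjusted p = 0.0942, edgeR; 0.324 with DESeq2), and its 95% interval of -0.03 to 0.65 holds changes as large as that of Dnmt1.

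Tet1 was close to absent in both groups (chromosome 10, 62804570 to 62908996). It had 2, 5 and 4 counts in Ad-Cre-GFP, against 7, 11 and 15 counts in Ad-GFP. No Ad-Cre-GFP library reached the lowest Ad-GFP library, although the Ad-Cre-GFP libraries were deeper. Pooled, 11 counts stood against 33, a ratio of 0.249 after depth scaling, with a 95% exact binomial interval of 0.114 to 0.506 that covers counting error only. Tested without the low-count filter, the log2 change was -1.92 (adjusted p = 0.000601, edgeR), and with DESeq2 it was -1.99 (adjusted p = 0.0164).

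Tet2 had a higher but still modest level (chromosome 3, 133463679 to 133545139). Its counts were 277, 253 and 268 in Ad-Cre-GFP, against 399, 432 and 343 in Ad-GFP. In CPM this was 9.47, 8.47 and 9.78 in Ad-Cre-GFP and 18.2, 16.9 and 18.2 in Ad-GFP. The groups were widely apart. Tet2 fell by 0.94 ± 0.07 on the log2 scale (adjusted p = 1.93e-10, edgeR).

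Tet3 carried most of the TET transcript (chromosome 6, 83362373 to 83459084). It had 2482, 2447 and 2315 counts in Ad-Cre-GFP, against 3039, 3527 and 2581 counts in Ad-GFP. Levels were tight within each group, at 84.9, 81.9 and 84.5 CPM in Ad-Cre-GFP and 139, 138 and 137 CPM in Ad-GFP. Tet3 fell by 0.72 ± 0.03 on the log2 scale (adjusted p = 1.01e-14, edgeR). B230319C09Rik, which lies on the opposite strand within Tet3, had at most 12 counts in a library, and no other gene of the table that overlaps one of the 9 had more.

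Mbd2 encodes the methyl-CpG binding subunit of a NuRD corepressor complex (chromosome 18, 70568189 to 70626131). It had 2367, 2391 and 2257 counts in Ad-Cre-GFP, against 1824, 2195 and 1530 counts in Ad-GFP. Scaled levels overlapped, at 81.0, 80.0 and 82.4 CPM in Ad-Cre-GFP and 83.1, 85.9 and 81.1 CPM in Ad-GFP. The log2 change was -0.04 ± 0.03 (adjusted p = 0.299, edgeR), with a 95% interval of -0.11 to 0.03.

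**Figure D2:**
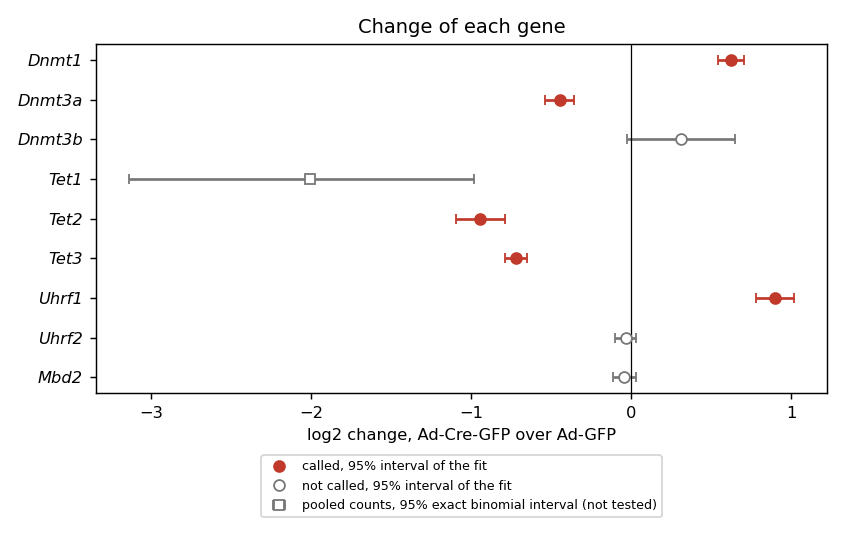
Log2 change of each gene, Ad-Cre-GFP over Ad-GFP, with 95% intervals of the edgeR fit (circles, filled where called) and, for Tet1, the ratio of pooled counts with its exact binomial interval (square, not tested). Dnmt1 (0.62) and Uhrf1 (0.90) lie right of 0, Dnmt3a (-0.44), Tet3 (-0.72) and Tet2 (-0.94) left of it, and the intervals of Dnmt3b, Uhrf2 and Mbd2 cross 0.

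Levels can be compared between genes only per length, as CPM per kilobase of all annotated exons. In Ad-Cre-GFP the order of these length-scaled levels was Dnmt1 (42.7 ± 0.631), Uhrf1 (25.5 ± 0.675), Mbd2 (25.2 ± 0.372), Uhrf2 (12.2 ± 0.138), Tet3 (5.02 ± 0.0982), Dnmt3a (3.13 ± 0.113), Tet2 (0.548 ± 0.0408), Dnmt3b (0.485 ± 0.00770) and Tet1 (0.0082 ± 0.0034). In Ad-GFP it was Dnmt1 (27.7 ± 1.89), Mbd2 (25.9 ± 0.747), Uhrf1 (13.6 ± 1.36), Uhrf2 (12.4 ± 0.273), Tet3 (8.25 ± 0.0526), Dnmt3a (4.27 ± 0.211), Tet2 (1.05 ± 0.0439), Dnmt3b (0.393 ± 0.0511) and Tet1 (0.033 ± 0.016), each a mean ± SD of 3 libraries. Neighbours whose libraries overlapped were Uhrf1 with Mbd2 in Ad-Cre-GFP, and Dnmt1 with Mbd2 and Uhrf1 with Uhrf2 in Ad-GFP. The upper places depend on the length used. With the longest coding transcript in place of all exons, Mbd2 stood above Uhrf1 in both groups (41.5 against 30.3 in Ad-Cre-GFP, and 42.7 against 16.1 in Ad-GFP). On that scale Mbd2 also stood above Dnmt1 (34.8), and Uhrf2 (30.2) above Uhrf1, in Ad-GFP.

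The mix within each family was read as shares. Dnmt1 made up 92.2% ± 0.343 of length-scaled DNMT transcript in Ad-Cre-GFP and 85.5% ± 1.47 in Ad-GFP (SD, n = 3 each), while the DNMT sum was 46.3 ± 0.521 and 32.3 ± 1.69 CPM per kilobase. Dnmt3a made up 6.76% in Ad-Cre-GFP, against 13.2% in Ad-GFP. Uhrf1 held 67.7% ± 0.803 of the UHRF sum in Ad-Cre-GFP and 52.1% ± 2.96 in Ad-GFP. All these shares depend on the length used. Per kilobase of the longest coding transcript, Uhrf1 was at 30.3 and Uhrf2 at 29.5 in Ad-Cre-GFP. In Ad-GFP they were at 16.1 and 30.2, so that Uhrf2 held the larger share there. Tet3 made up 90.0% ± 0.484 of TET transcript in Ad-Cre-GFP and 88.4% ± 0.519 in Ad-GFP, while the TET sum was 5.57 ± 0.135 and 9.34 ± 0.0518 CPM per kilobase.

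As ratios of length-scaled levels, Dnmt1 to the sum of Dnmt3a and Dnmt3b was 11.8 ± 0.553 in Ad-Cre-GFP and 5.96 ± 0.697 in Ad-GFP, a log2 difference of 0.99. The ratio of Uhrf1 to Uhrf2 was 2.10 ± 0.0764 in Ad-Cre-GFP and 1.09 ± 0.125 in Ad-GFP, a log2 difference of 0.95. The height of such ratios depends on the length used, but the log2 difference between single genes does not. Within the pair that rose, Uhrf1 to Dnmt1 was 0.597 ± 0.00840 in Ad-Cre-GFP and 0.490 ± 0.0172 in Ad-GFP (0.29). Dnmt3b to Dnmt3a was 0.155 ± 0.00313 in Ad-Cre-GFP and 0.0919 ± 0.00926 in Ad-GFP (0.76), Tet3 to Tet2 was 9.19 ± 0.535 and 7.85 ± 0.349 (0.23), and Tet1 to the sum of Tet2 and Tet3 was 0.0015 and 0.0036 (-1.27), resting on the few Tet1 counts. The summed TET to the summed DNMT level was 0.121, 0.116 and 0.124 in Ad-Cre-GFP and 0.283, 0.278 and 0.307 in Ad-GFP, a log2 difference of -1.26. All these ratios are built from the levels given above, so no further result about the family is read from them. Among all tested genes 73.0% did not overlap by CPM, and the share over ratios of other genes was not computed. The groups did not overlap for any of the 7 ratios. Each had a two-sided exact permutation p of 0.1 over the 6 libraries (0.1 after adjustment over the 7), which is the smallest that 3 against 3 can give.

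**Figure D3:**
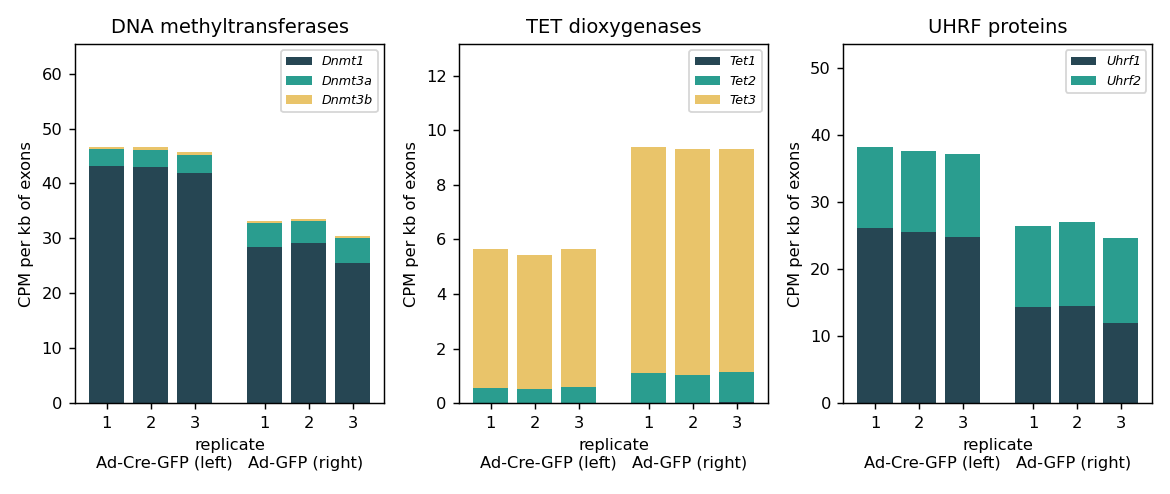
Length-scaled level (CPM per kilobase of exons) of each member, stacked within the DNMT, TET and UHRF families, with a bar for every library, the Ad-Cre-GFP libraries left of the Ad-GFP libraries. The DNMT and UHRF sums are higher in Ad-Cre-GFP (46.3 against 32.3 and 37.7 against 26.0) and the TET sum is lower (5.57 against 9.34). The share of each gene depends on the length used.

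Dnmt1 and Uhrf1 are known as genes transcribed most in S phase, so they were set against 22 genes of DNA replication and S phase. All 22 rose (34.0% of all tested genes did), with a median log2 change of 0.92, against -0.0065 over all tested genes. Among those with the smallest adjusted p were Rrm1, a ribonucleotide reductase subunit (1.20 ± 0.04), Mcm6, a subunit of the replicative helicase (0.70 ± 0.03), and E2f1, the transcription factor of the S phase programme (0.90 ± 0.05). Their summed level was 2966 ± 42.3 CPM in Ad-Cre-GFP and 1411 ± 122 CPM in Ad-GFP. Ad-GFP replicate 3, the lowest control for Dnmt1 and Uhrf1, was also the lowest control for 21 of the 22. How often it was the lowest control over all tested genes was not computed, so that nothing is read from this count.

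Each family gene was then expressed as a percent of that sum in the same library. The sum was itself higher in Ad-Cre-GFP, so that any gene that rose by less than the sum comes out lower on this scale, and a lower percent is not a fall of the gene. Dnmt1 stood at 10.5% of the replication sum in each Ad-Cre-GFP library, against 14.6%, 14.4% and 14.9% in Ad-GFP, a log2 difference of -0.48. Uhrf1 stood at 3.66%, 3.61% and 3.58% in Ad-Cre-GFP, against 4.24%, 4.14% and 4.06% in Ad-GFP (-0.20). Genes weigh unequally in the sum, with Rrm1 at 646 CPM, Rrm2 at 401 CPM and Mcm2 at 346 CPM in Ad-Cre-GFP. The median log2 change of the 22 genes was 0.92, against 0.90 for Uhrf1 and 0.62 for Dnmt1. Uhrf2, not called by CPM, averaged 3.47% in Ad-Cre-GFP and 7.71% in Ad-GFP (-1.15), and Mbd2 ran from 2.65% to 2.79% in Ad-Cre-GFP and from 5.78% to 6.44% in Ad-GFP (-1.15). The log2 differences of the others were -1.56 for Dnmt3a, -0.80 for Dnmt3b, -2.06 for Tet2, -1.83 for Tet3 and -3.12 for Tet1. All 9 ratios had a two-sided exact permutation p of 0.1 (0.1 adjusted over the 9), again the smallest possible. Nothing is read from this about single genes, since they share a denominator that differs between the groups, and Uhrf2 and Mbd2 overlap in CPM. Whether the changes in Dnmt1 and Uhrf1 go with the share of cells in S phase was not tested, as cell cycle was not measured.

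**Figure D4:**
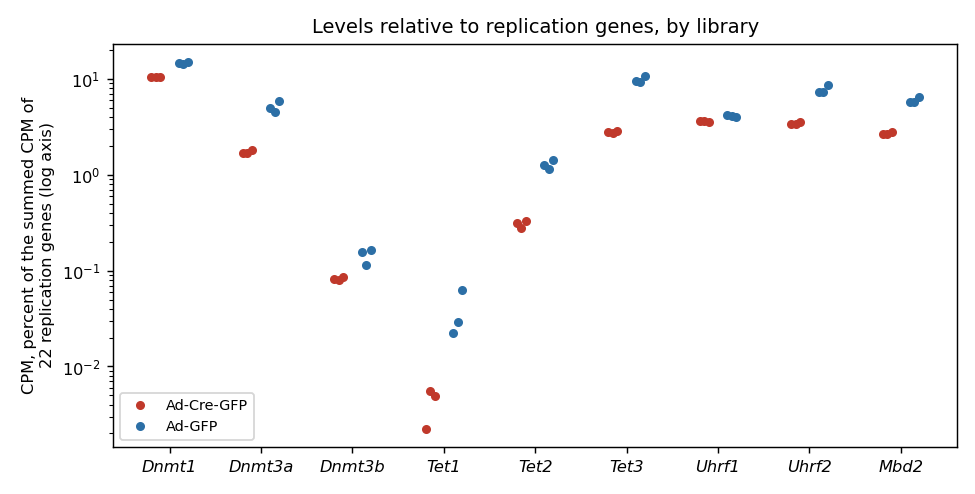
Level of each gene as a percent of the summed CPM of 22 replication and S phase genes in the same library, on a log axis, Ad-Cre-GFP in red left of Ad-GFP in blue. Dnmt1 (10.5% against 14.7%) and Uhrf1 (3.62% against 4.15%) lie close together across the groups, the TET genes lie furthest apart, and the sum itself is higher in Ad-Cre-GFP (2966 against 1411 CPM).

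The tested genes whose pattern over the 6 libraries lay nearest to each member (Euclidean distance of centred log2 CPM, among 10788 genes with a mean of at least 5 CPM) are named below. For Uhrf1 they were Mcm4, a helicase subunit (distance 0.052, log2 change 0.89 ± 0.05), Dbf4, the activator of the CDC7 kinase (0.93 ± 0.04), and Asf1b, a histone chaperone (0.85 ± 0.05). For Dnmt1 they were Zfand2a (0.61 ± 0.05), Sae1, a SUMO activating enzyme subunit (0.65 ± 0.04), and Mre11a, a nuclease of double-strand break repair (0.63 ± 0.04). For Tet3 they were Irgq, Ech1 and Etl4 (-0.69 to -0.74), and for Tet2 Il1rn, Sft2d2 and Elmo1 (-0.90 to -0.99). Dnmt3a had Pla2g4a, Spred1 and Zkscan3 (-0.43 to -0.47), and Dnmt3b had Crebl2, Ehbp1 and Nkap (0.28 to 0.33). For Uhrf2 they were Srp72, Clint1 and Mob2, and for Mbd2 the pseudogene Gm11189, Casp8 and Eef1b2, none of them called. All were picked for likeness over the same 6 libraries. Similar log2 changes and calls therefore follow from the choice, and nothing further is read from them.

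Around the family stand other DNMT family members and factors of methylation maintenance. Of 8 such genes 7 were tested, 6 rose (34.0% of all tested genes did), 0 fell and 1 was not called, with a median log2 change of 0.61, against -0.0065 over all tested genes. Hells, the chromatin remodeller needed for methylation of repeats, was at 278 ± 2.96 CPM in Ad-Cre-GFP and 116 ± 6.05 CPM in Ad-GFP (1.26 ± 0.03, adjusted p = 3.08e-18, edgeR). Its activator Cdca7 was at 39.5 ± 3.38 CPM in Ad-Cre-GFP and 18.9 ± 0.262 CPM in Ad-GFP (1.07 ± 0.06), and Cdca7l rose by 0.61 ± 0.06. Pclaf, the PCNA-associated factor that helps to recruit DNMT1, rose by 0.88 ± 0.04, and the replication ligase Lig1 by 0.53 ± 0.05. Trdmt1, a tRNA methyltransferase of the DNMT family, rose by 0.28 ± 0.09. Usp7, the deubiquitinase of DNMT1 and UHRF1, had a log2 change of 0.06 ± 0.03 (adjusted p = 0.126, edgeR), and Dnmt3l, the cofactor of de novo methylation in germ cells, was at 0 in all 6 libraries.

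Other genes listed as methyl-CpG binding proteins were also counted. Of these 9, 7 fell and 2 rose, against 35.8% lower and 34.0% higher among all tested genes, with a median log2 change of -0.41. Mbd5 and Mbd6 are in the list by family, not as proven readers, so the count is not one of readers alone. Zbtb4, a zinc finger reader, was at 23.9 ± 1.16 CPM in Ad-Cre-GFP and 46.7 ± 2.35 CPM in Ad-GFP (-0.96 ± 0.05), and Mbd6 fell by 0.43 ± 0.03 and Mbd5 by 0.47 ± 0.05. The pair that rose was Mbd3 (0.21 ± 0.03), the NuRD subunit that mostly lacks methyl-CpG binding, and Mbd4 (0.48 ± 0.12), a glycosylase of deaminated CpG sites. Among 13 NuRD subunits 8 rose, 3 fell and 2 were not called (median 0.13; 34.0% and 35.8% of all tested genes rose and fell), with Gatad2a (0.51 ± 0.03), Rbbp7 (0.22 ± 0.03), Mta2 (0.20 ± 0.03) and Mta3 (-0.42 ± 0.07) at the smallest adjusted p, and Chd3 (-0.05 ± 0.03) and Mta1 (0.03 ± 0.03) not called.

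Genes of base excision and partners of TET enzymes moved in both directions, with 4 of 11 tested higher and 7 lower (median -0.50; 34.0% higher and 35.8% lower among all tested genes). The stress genes Gadd45g and Gadd45b, proposed as demethylation adaptors, both rose. Gadd45g was at 181 ± 2.27 CPM in Ad-Cre-GFP and 28.1 ± 3.33 CPM in Ad-GFP (2.68 ± 0.05), and Gadd45b rose by 1.23 ± 0.03, while their relative Gadd45a fell by 0.62 ± 0.07. Cxxc5, a CpG binding protein that interacts with TET2, was at 21.7 ± 2.24 CPM in Ad-Cre-GFP and 70.6 ± 2.87 CPM in Ad-GFP (-1.70 ± 0.06). Its relative Cxxc4 fell by 1.92 ± 0.15, and Ogt, the glycosyltransferase that binds TET proteins, fell by 0.58 ± 0.04. Tdg, the glycosylase that removes oxidised methylcytosine, rose by 0.32 ± 0.06, and the glycosylase Neil2 fell by 2.16 ± 0.18.

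Genes tied to the supply or use of S-adenosylmethionine, the methyl donor of DNMTs, had 10 of 12 tested higher and 2 lower. The median was 0.50, with 34.0% higher and 35.8% lower among all tested genes. Not all of the 10 supply or recycle the donor. Among them were the AHCY-like genes Ahcyl1 and Ahcyl2, listed for their likeness to AHCY, and Amd1, a user of the donor. Ahcyl1, an AHCY-like protein, was at 1212 ± 6.36 CPM in Ad-Cre-GFP and 510 ± 5.81 CPM in Ad-GFP (1.25 ± 0.03). Mthfd1, a folate enzyme, rose by 1.14 ± 0.03, and Mat2a, the catalytic subunit of methionine adenosyltransferase, by 0.68 ± 0.03, while its regulatory subunit Mat2b fell by 0.64 ± 0.04. The liver enzymes Mat1a and Bhmt were at 0 in all 6 libraries.

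A list around enzymes of alpha-ketoglutarate, the cosubstrate of TETs, and of its reduced form had 5 of 11 higher and 4 lower. The remaining 2 (Idh2 and Idh3g) were not called, against 34.0% higher and 35.8% lower among all tested genes. These counts include enzymes of succinate and fumarate, which are Sdha (-0.09 ± 0.03, lower), Sdhb (-0.11 ± 0.04, lower) and Fh1 (0.33 ± 0.04, higher). Idh1, the cytosolic isocitrate dehydrogenase that makes it, was at 75.1 ± 1.71 CPM in Ad-Cre-GFP and 188 ± 4.50 CPM in Ad-GFP (-1.33 ± 0.03). The mitochondrial Idh3a rose by 0.58 ± 0.03. D2hgdh, a hydroxyglutarate dehydrogenase, fell by 0.63 ± 0.07.

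Among 13 chromatin genes tied to methylated DNA 6 rose, 5 fell and 2 (Ehmt2 and Setdb1) were not called (median -0.0093), so that 11 of 13 were called, against 69.8% of all tested genes. Of these, Cxxc1, a reader of unmethylated CpG sites, fell by 0.43 ± 0.04. The histone methyltransferases Suv39h2 and Suv39h1 rose by 1.05 ± 0.10 and 0.36 ± 0.06, and the heterochromatin protein Cbx3 by 0.34 ± 0.04. Counts of Pclaf, Tdg, Mat2a, Rbbp7, Cbx3 and D2hgdh are uncertain, since transcripts of other annotated genes closely match stretches of theirs. For Rrm1 the matches were less alike, up to 94.1% identity. Further list genes are as uncertain, among them Pcna (Pcna-ps2, 99.2%), Ahcy (Gm4737, 99.7%), Hdac1 (Gm10093, 99.4%) and Amd1 (Amd2, 99.6%). In Ad-Cre-GFP replicate 1 Gm4737 had 4895 counts, against 913 for Ahcy.

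Germline genes whose promoters are kept silent by methylation in somatic tissue stayed near the limit of detection. Of 17 such genes 9 were at 0 in all 6 libraries and 2 had enough counts to be tested, Sycp1 (-0.05 ± 0.25, adjusted p = 0.880, edgeR) and Brdt (-0.87 ± 0.40, adjusted p = 0.0581). Neither was called. The sum over the list was 2.28 ± 0.276 CPM in Ad-Cre-GFP and 2.43 ± 0.770 CPM in Ad-GFP (SD, n = 3 each). Below the filter, Taf7l had 3, 6 and 8 counts in Ad-Cre-GFP, against 1, 1 and 0 counts in Ad-GFP, a depth-scaled ratio of 6.36 (95% exact binomial interval 1.51 to 56.7). Tdrd1 had 4, 6 and 7 counts in Ad-Cre-GFP, against 0, 4 and 3 counts in Ad-GFP, a ratio of 1.82 (0.716 to 5.18). Sycp3 had 2, 9 and 1 counts in Ad-Cre-GFP, against 7, 7 and 2 counts in Ad-GFP, a ratio of 0.561 (0.242 to 1.26). The remaining 3, Ddx4, Mov10l1 and Asz1, had 4, 3 and 1 counts over the Ad-Cre-GFP libraries and 0 in Ad-GFP. The intervals cover counting error only, and that of Taf7l rests on 2 counts in Ad-GFP.

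**Figure D5:**
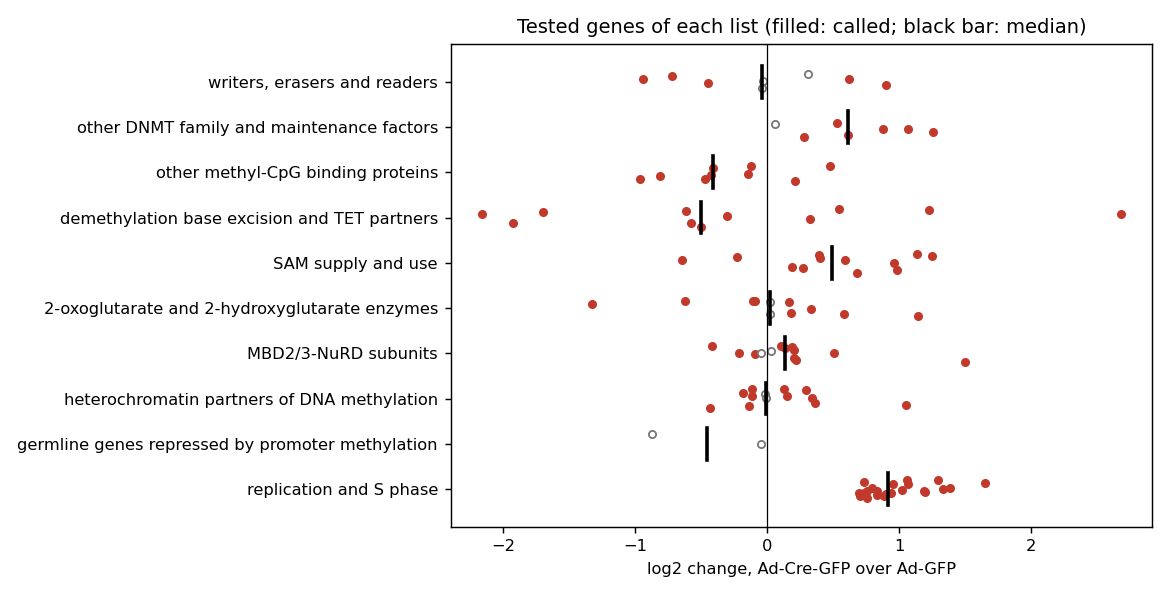
Log2 change, Ad-Cre-GFP over Ad-GFP, of every tested gene of the family and of each related list, filled where called, with a black bar at each list's median. The replication genes all lie right of 0 (median 0.92). Genes listed as methyl-CpG binding proteins lie mostly left of it (median -0.41), and the 8 family genes fall on both sides.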

How the data were processed

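The deposited values are whole-number counts per gene, 1 column for each of 6 libraries, from aligned reads, per the file headers. RNA was poly(A)-enriched per the labels' protocols. The build GRCm38 and the tools sleuth 0.30.1 and kallisto 0.46.2 are named in the submitters' processing notes. Not given in the sources used here are the aligner, the counter, the use of strand and of multiply matching reads, and the annotation, so counts of near-identical or overlapping genes are uncertain.

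Symbols, coordinates and exon lengths came from GENCODE mouse release M21 (GRCm38) by gene ID, which matched 48058 of 48440 IDs. The other IDs held 0.0381% of counts. The family and all lists were chosen with earlier results of these data known. The edgeR 4.0.16 quasi-likelihood test (robust, group only, TMM, filterByExpr, R 4.3.3) was run on 14811 genes, with calls where the Benjamini-Hochberg adjusted p was under 0.05. SE is the log2 change divided by the square root of F. The test was checked on simulated data. In each list up to 4 genes with the smallest adjusted p are named, and some that this rule names are not reported here; further ones (such as Lig1, Trdmt1, Mbd3, Mbd4, Gadd45a, Cxxc4, Tdg, Neil2, Taf7l, Tdrd1 and Sycp3) were named after their values were seen. Ratios were tested by exact permutation (scipy 1.17.1). Near copies were searched with minimap2 2.31. No replicate pair agreed within sampling noise. Alternatives were other scalings and filters, DESeq2 1.42.0, limma-voom (limma 3.58.1), a replicate block, thinning to 18690235 counts and leaving out each library; adding the counts of Gm5648 to Uhrf1 was chosen after seeing the data.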

Additional observations from a re-analysis of the deposited data

How the results depend on the processing

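In every alternative run, the directions and calls of the 8 tested genes held: log2 changes over all settings ran from 0.57 to 0.66 for Dnmt1, 0.83 to 0.95 for Uhrf1, -0.48 to -0.41 for Dnmt3a, -0.98 to -0.88 for Tet2 and -0.73 to -0.68 for Tet3. Dnmt3b ran from 0.20 (without Ad-GFP replicate 2) to 0.40 and was called in none of these settings, nor were Uhrf2 (-0.07 to -0.02) and Mbd2 (-0.06 to -0.02). The log2 ratio of pooled Tet1 counts ran from -2.27 to -1.61 when a library was left out. Calls over all genes ran from 9260 (DESeq2) to 10854 (no filter), and from 9932 to 10124 with a library left out. Ratios within the families and to the replication genes kept their sign in every setting run, with no test where a library was left out. With a replicate block 10478 genes were called, with Dnmt1 at 0.63 and Uhrf1 at 0.91, and no call of the 8 changed; the labels give no shared source behind the numbers, and same-numbered libraries deviated together hardly at all (correlations 0.0488, 0.0510 and 0.0050), with Ad-Cre-GFP replicate 3 correlating best with Ad-GFP replicate 1. A few counts within lists moved by over 1.5 times. On the alpha-ketoglutarate list, genes called lower were 2 with no filter, with DESeq2 or without Ad-Cre-GFP replicate 3. Chromatin genes called lower were 3 without that library. Among germline genes, 1 was called higher with no filter. Without Ad-GFP replicate 1, Ad-GFP replicate 2 or Ad-Cre-GFP replicate 1, 1 germline gene was called lower. The cause of these moves was not tested. Depth limits Tet1, Dnmt3b and the germline genes, and 3 libraries a group hold the smallest permutation p at 0.1.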
